A study of Mus musculus with 12 samples.

Results

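The genes described here are 41 enzymes, transporters and binding proteins of fatty acid oxidation and ketone body metabolism in the mouse kidney. They are listed by name, with no threshold on a measured value, but were chosen with earlier results of these data known. Shares set beside those of all genes below carry that limit. All 41 were found among the 24421 gene symbols of the deposited tables. Where a symbol had several transcripts, the transcript with the highest total count stood for the gene. The genes were sorted by where their protein is known to work, into 20 mitochondrial, 12 peroxisomal, 4 present in both organelles (Acad11, Eci2, Crat and Amacr) and 5 that act in uptake, activation or binding outside them (Acsl1, Acot12, Cd36, Fabp1 and Fabp3).

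RNA-seq was done on whole kidneys of male C57BL/6 mice (as labelled, with a C57BL/6J background per the study's methods) aged 6 weeks, in 12 libraries that form 4 groups of 3. WT mice and mice labelled Tet2-/-, a germline deletion of the gene for the 5-methylcytosine dioxygenase Tet2, were studied without an operation (baseline) and after ischemia-reperfusion (IR). In the IR groups the right renal pedicle was clamped for 60 min and the left kidney was removed, and the right kidney was taken 24 h after reperfusion. No sham-operated library was used here, so ischemia, the operation and the loss of the other kidney cannot be told apart in any comparison of IR with baseline. The labels number 3 samples in each group, and per the study's methods these are kidneys of separate mice.

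Fatty acids are the main fuel of the proximal tubule, the segment that reabsorbs most of the filtered load and that is rich in both mitochondria and peroxisomes. Long-chain acyl-CoA enters mitochondria through the carnitine shuttle and is shortened by repeated rounds of dehydrogenation, hydration, a further dehydrogenation and thiolysis, whose electrons pass through electron transfer flavoprotein to the respiratory chain. Peroxisomes shorten very long, branched and bile acid side chains with hydrogen peroxide-producing acyl-CoA oxidases, and pass the shortened products to mitochondria as carnitine esters. Ketone bodies are made from acetyl-CoA, mainly in liver, and are used as fuel in other tissues through Bdh1 and Oxct1.

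The libraries held 51007362 to 107969879 counts on the transcripts used. Levels below are FPKM (fragment counts scaled to transcript length and library depth, as deposited), in the order of replicates 1, 2 and 3, and fold changes are edgeR estimates on counts. Tet2 itself was measured at 9.15, 6.25 and 7.33 FPKM in WT and 9.24, 16.6 and 10.3 FPKM in labelled Tet2-/- kidneys at baseline. After IR Tet2 was at 9.34, 3.97 and 3.85 FPKM in WT and 2.64, 3.20 and 1.76 FPKM in labelled Tet2-/- kidneys. At baseline the libraries labelled Tet2-/- were not lower in Tet2 than the WT libraries, with a log2 fold change of 0.76 (SE 0.24, edgeR adjusted p = 0.320), so this measure did not separate the genotypes in the direction of their labels. The counts cover the whole transcript, and the part of the gene that the allele removes was not analysed here. For this reason the kidneys are called "labelled Tet2-/-" throughout. Every direction between genotypes below rests on the labels.

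The kidney was recognisable in every library. The mean level of 18 proximal tubule markers, on the log2(FPKM + 0.1) scale, lay between 7.81 and 8.23 in WT baseline, 7.79 and 8.12 in labelled Tet2-/- baseline, 7.20 and 7.58 in WT IR and 5.99 and 6.22 in labelled Tet2-/- IR kidneys, while 8 skeletal muscle markers did not exceed -1.88 in any library. Markers of other cells also moved. The mean of 10 adipocyte markers was high in WT baseline replicates 2 and 3 and in labelled Tet2-/- IR replicate 3, where it reached 3.78, and 8 neutrophil markers rose from between -1.78 and -1.09 in WT IR to between 1.18 and 1.99 in labelled Tet2-/- IR kidneys. The mean of 10 markers of injured tubule was between 1.37 and 2.51 at baseline, between 4.21 and 6.09 in WT IR and between 7.36 and 7.82 in labelled Tet2-/- IR kidneys. That of 6 thick ascending limb markers was between 4.36 and 6.06 in labelled Tet2-/- IR kidneys and between 6.20 and 6.49 in WT IR kidneys, and that of 9 endothelial markers ran from 0.58 to 3.17 in WT IR and from 2.49 to 3.71 in labelled Tet2-/- IR kidneys. The mean of 10 macrophage markers overlapped between these groups, at 0.40 to 1.66 and 1.09 to 3.05. The part of these markers in the results was not tested. In whole tissue, fewer tubule cells and less RNA per tubule cell cannot be told apart, and this holds for every result below.

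In 3 of the 4 groups a single library held the highest value for most of these genes. On TMM-scaled counts, labelled Tet2-/- IR replicate 1 was the highest of its group for 29 of the 41 genes (70.7%, against 31.4% of all 16741 genes), WT IR replicate 3 for 26 (63.4%, against 31.8%) and WT baseline replicate 3 for 26 (63.4%, against 38.2%). Among the 12 peroxisomal genes these libraries were the highest for 9, 9 and 7. The spread within a group was widest in labelled Tet2-/- IR kidneys, where the highest library exceeded the lowest by a median of 1.70 times over the 41 genes (1.47 times over all genes), against 1.26 to 1.38 times in the other groups (1.28 to 1.41 times over all genes). For labelled Tet2-/- IR replicate 1, values without it are given where they change a call or move a fold change by more than 1.5 times.

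At baseline the genes were abundant. In WT kidneys the highest mean was that of Acadm, the medium-chain acyl-CoA dehydrogenase, at 527 ± 104 FPKM (SD, n = 3), followed by Phyh, the hydroxylase that starts the breakdown of phytanic acid, at 435 ± 4.15 FPKM, and Etfb, the beta subunit of electron transfer flavoprotein, at 396 ± 84.5 FPKM. Of these, Phyh lay within the spread of Etfb, and Acadm was less than its own SD above Phyh. At the low end stood Cpt1b, the muscle form of the carnitine palmitoyltransferase of the outer mitochondrial membrane, at 10.6 ± 1.02 FPKM, and Fabp1, the liver fatty acid-binding protein, at 0.0417 ± 0.0363 FPKM. The 41 genes together summed to between 4376 and 5073 FPKM in WT baseline kidneys and between 5008 and 5130 FPKM in labelled Tet2-/- baseline kidneys. After IR the sum was 4501 to 5308 FPKM in WT kidneys and 2463 to 4822 FPKM in labelled Tet2-/- kidneys, so only the latter group reached below the baseline range.

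**Figure D1:**
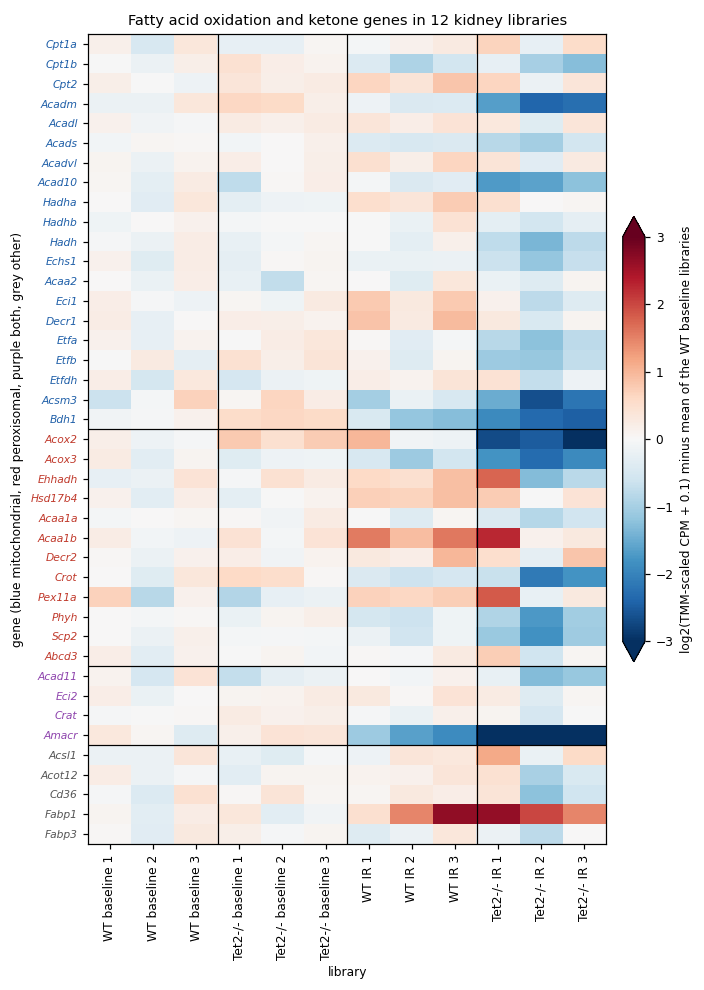
Heat map of the 41 genes (rows, by organelle) in the 12 libraries (columns), coloured by log2(TMM-scaled CPM + 0.1) minus the mean of the 3 WT baseline libraries, with the colour scale ending at ±3. The blue cells gather in the 3 columns labelled Tet2-/- IR, in Acadm, Acsm3, Bdh1, Acox2, Acox3 and Amacr, and labelled Tet2-/- IR replicate 1 shows red in Ehhadh, Acaa1b and Pex11a.

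Without an operation, none of these genes passed both limits between the genotypes. Of 40 genes tested, 0 passed the test in either direction (edgeR, adjusted p under 0.05 and absolute log2 fold change over 1), where 0% of 16086 genes were lower and 0.0124% higher. DESeq2 also called 0 genes. Without the limit on fold change the count was 0 in the reported fit. Bdh1 (log2 fold change 0.62, SE 0.12) and Acox2 (0.72, SE 0.14) passed an adjusted p under 0.05 in an alternative fit. Their fold changes stayed under the limit, at 0.53 to 0.76 and 0.55 to 0.82 over the alternatives. At an unadjusted p under 0.05, 3 genes were higher and 0 lower in kidneys labelled Tet2-/-, namely Acadm, Bdh1 and Acox2, where 3.56% of all genes were higher and 8.2% lower at that limit. For 6 genes (15.0%) all labelled Tet2-/- libraries lay above all WT libraries, against 8.04% of all genes, and the median log2 fold change of the 40 genes was 0.11.

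IR in WT kidneys moved few of these genes past the limits. Amacr, the racemase of branched-chain and bile acid intermediates, was the only gene called lower of 40 tested (2.5%, against 0.887% of all 16015 genes), and Acaa1b, a peroxisomal thiolase, was the only gene called higher (2.5%, against 1.46%). The median change of the 40 genes was 0.05 on the log2 scale, beside -0.03 over all genes. In 10 genes (25%, background 14.5%) all IR libraries lay above all baseline libraries, namely Acaa1b and, without passing the test, Cpt2, Acadl, Acadvl, Hadha, Eci1, Decr1, Ehhadh, Hsd17b4 and Decr2. In 7 genes (17.5%, near the background of 14.8%) they lay below, namely Amacr and, without passing the test, Cpt1b, Acads, Bdh1, Acox3, Crot and Phyh. The Acaa1b call was lost when any 1 of the WT baseline libraries or WT IR replicate 3 was left out, with the log2 fold change then between 1.27 and 1.60 over the 6 libraries left out in turn. The Amacr call was lost without any 1 library other than WT IR replicate 1, with values between -1.79 and -1.36. Both calls were also lost with the level of the adipocyte markers as a covariate.

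In kidneys labelled Tet2-/-, IR lowered some genes of both organelles, while 13 of the 41 fold changes were positive. Among the peroxisomal genes, Hsd17b4 (0.43, SE 0.21) and Abcd3 (0.11, SE 0.30) were not lower. Of 41 genes tested, 13 (31.7%) were called lower, against 11.6% of all 16358 genes: Cpt1b, Acadm, Acad10, Etfa, Etfb, Acsm3 and Bdh1 of the mitochondrial genes, Acox2, Acox3, Crot, Phyh and Scp2 of the peroxisomal genes, and Amacr. The binding protein Fabp1 was the only gene called higher (2.4%, against 12.7%). The median change of the 41 genes was -0.40 on the log2 scale, where that of all genes was 0.04. Without the limit on fold change, 18 genes (43.9%, background 20.3%) were lower, and in 19 genes (46.3%, background 27.3%) every IR library lay below every baseline library. Of the 13 calls, that of Cpt1b was lost without labelled Tet2-/- baseline replicate 1 or without labelled Tet2-/- IR replicate 2 or 3, with log2 fold changes between -1.46 and -0.90 over the libraries left out in turn, and the other 12 held whichever library was left out. The calls of Cpt1b and Etfa were also lost with library sizes alone and with limma on FPKM at either pseudocount, and that of Fabp1 with a mean FPKM of at least 1 and with limma on log2(FPKM + 1).

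**Figure D2:**
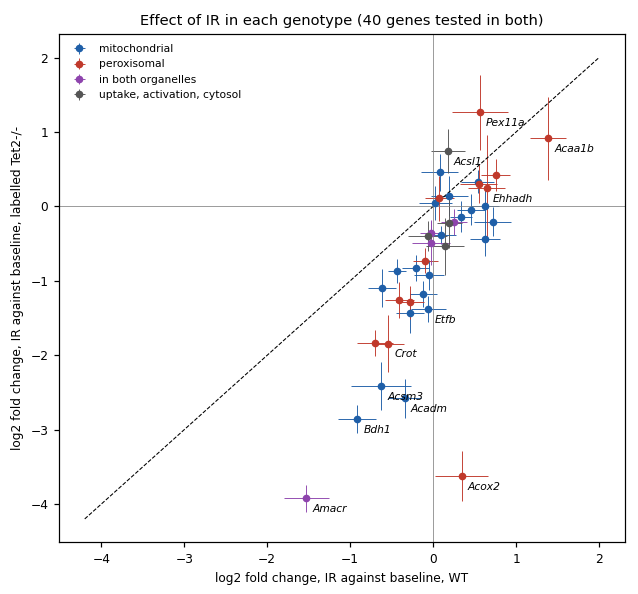
Log2 fold change of IR against baseline in WT kidneys (x axis) and in kidneys labelled Tet2-/- (y axis) for the 40 genes tested in both, with standard errors as bars, colours for the organelle and a dashed line where both changes are equal. Most points lie below the line. Acox2 lies at 0.34 and -3.62, Amacr at -1.53 and -3.92, and Acaa1b at 1.39 and 0.91.

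Compared directly after IR, kidneys labelled Tet2-/- were lower than WT kidneys in 8 of 41 genes (19.5%, against 3.85% of all 16186 genes): Acadm, Acad10, Acsm3, Bdh1, Acox2, Acox3, Scp2 and Amacr. No gene, 0 of 41, was called higher, where 2.3% of all genes were, and neither an unadjusted p under 0.05 in edgeR nor DESeq2 gave a higher gene. Without the limit on fold change 11 genes (26.8%, background 6.17%) were lower, the added ones being Hadh, Etfa and Etfb. In 19 genes (46.3%, background 18.4%) every labelled Tet2-/- library lay below every WT library, and 36 of the 41 fold changes were negative, with a median of -0.42 on the log2 scale beside 0.04 over all genes. The calls of Acadm, Acad10, Acox2 and Amacr held whichever library was left out. Those of the other 4 were each lost without at least 4 of the 6 libraries in turn, with log2 fold changes from -1.87 (Acsm3) to -0.83 (Scp2). The count fell to 4 without WT IR replicate 1, without WT IR replicate 3 and without labelled Tet2-/- IR replicate 2. The same 6 libraries gave 18 proximal tubule markers a median log2 fold change of -1.26 with 8 called lower and 8 neutrophil markers a median of 3.89 with 7 called higher.

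The difference between the IR effects of the genotypes was tested in all 12 libraries together. For 7 of 41 genes (17.1%, against 5.38% of all 16741 genes; adjusted p under 0.05) the change with IR was lower in kidneys labelled Tet2-/-: Acadm, Etfa, Etfb, Bdh1, Acox2, Acox3 and Amacr. In the fit that pairs libraries by replicate number the count was 12, all lower, where 6.28% of all genes were lower. The genes added there included Acad10, Eci1 and Acsm3. The calls of Acadm, Etfb, Bdh1, Acox2 and Amacr held without any 1 of the 12 libraries, that of Etfa was lost without 4 of them in turn (labelled Tet2-/- baseline replicates 2 and 3 and WT IR replicates 1 and 3; values between -1.12 and -0.93) and that of Acox3 without 8 (WT baseline replicates 2 and 3, labelled Tet2-/- baseline replicates 1, 2 and 3, WT IR replicates 1 and 3 and labelled Tet2-/- IR replicate 2; values between -1.26 and -0.98). These IR effects share no control library between genotypes, while the genotype difference after IR and each IR effect use the same IR libraries.

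**Figure D3:**
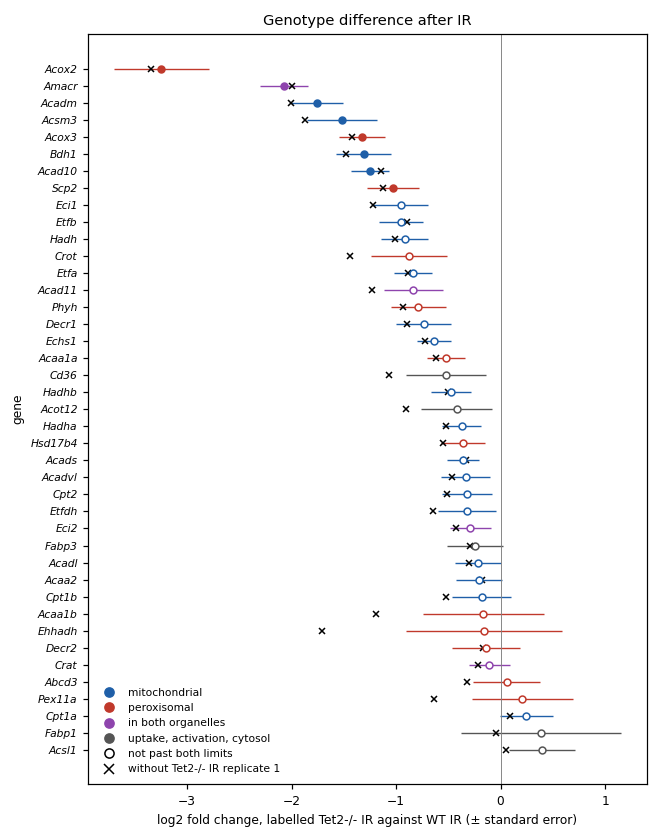
Log2 fold change after IR of kidneys labelled Tet2-/- against WT kidneys for the 41 genes, ordered by size, with standard errors as bars, filled points for genes past both limits and crosses for the fold change without labelled Tet2-/- IR replicate 1. The points run from -3.25 for Acox2 to 0.40 for Acsl1, 36 of them below 0, and the crosses of Ehhadh, Acaa1b and Pex11a lie farthest to the left of their points.

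In the mitochondrial carnitine shuttle only Cpt1b was called among Cpt1a, Cpt1b, Cpt2 and Crat. Cpt1a, the liver form of the outer membrane enzyme that commits long-chain acyl groups to mitochondria, stood at 65.6, 43.5 and 73.8 FPKM in WT and 49.0, 48.0 and 59.3 FPKM in labelled Tet2-/- kidneys at baseline. After IR Cpt1a was at 61.8, 70.1 and 69.9 FPKM in WT and 103, 60.8 and 91.1 FPKM in labelled Tet2-/- kidneys. Labelled Tet2-/- IR replicates 1 and 3 were the highest of the 12 libraries and replicate 2 overlapped the WT groups, and no comparison passed the test (after IR: log2 fold change 0.25, SE 0.25, adjusted p = 0.556, edgeR). Cpt2, which returns the acyl group to CoA inside the mitochondrion, was at 73.2, 65.5 and 57.2 FPKM (WT) and 82.1, 70.0 and 73.5 FPKM (labelled Tet2-/-) at baseline. Cpt2 after IR was at 109.6, 91.6 and 113 FPKM (WT) and 112, 69.6 and 86.9 FPKM (labelled Tet2-/-). Its WT IR libraries all lay above WT baseline, without passing the test (log2 fold change 0.63, SE 0.16, adjusted p = 0.0883, edgeR), while the labelled Tet2-/- libraries overlapped between IR and baseline. Crat, which makes acetylcarnitine, was nearly level at 38.8, 40.4 and 40.1 FPKM in the WT and 46.2, 41.4 and 43.0 FPKM in the labelled Tet2-/- libraries at baseline, and 42.0, 37.2 and 42.9 and 46.0, 33.9 and 41.3 FPKM in the same order after IR, and all 4 fold changes lay between -0.36 and 0.22. Cpt1b fell with IR in kidneys labelled Tet2-/- (log2 fold change -1.10, SE 0.26, adjusted p = 0.0119, edgeR), but its transcript lies inside a read-through transcript with Chkb on the same strand, so their reads cannot be told apart.

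Among the acyl-CoA dehydrogenases, which carry out the first step of each round, the medium-chain enzyme changed and the long-chain enzymes did not pass the test. Acadm was measured at 459.6, 474 and 647 FPKM in WT and 777, 738 and 562 FPKM in labelled Tet2-/- kidneys at baseline. After IR Acadm was at 508, 419 and 383 FPKM in WT and 181, 120.0 and 113 FPKM in labelled Tet2-/- kidneys. The 3 labelled Tet2-/- IR libraries were the lowest of all 12, with no overlap, whereas the WT libraries overlapped between baseline and IR. Acadm fell with IR by 2.58 on the log2 scale in kidneys labelled Tet2-/- (SE 0.27, edgeR adjusted p = 0.000418). The WT change was -0.34 (SE 0.20, adjusted p = 0.358) and the interaction was -2.20 (SE 0.33, adjusted p = 0.00503). Acadl, the long-chain enzyme, was at 129.95, 113 and 114 FPKM (WT) and 137, 126 and 136 FPKM (labelled Tet2-/-) at baseline. Acadl after IR was at 166, 148 and 154 FPKM (WT) and 161, 110.4 and 158 FPKM (labelled Tet2-/-). Acadvl, the very long-chain enzyme of the inner membrane, was at 133, 114 and 132 FPKM (WT) and 141, 121 and 135 FPKM (labelled Tet2-/-) at baseline. Acadvl after IR was at 192, 155 and 192 FPKM (WT) and 179, 120.2 and 158 FPKM (labelled Tet2-/-). For both genes WT IR libraries lay above WT baseline and labelled Tet2-/- IR overlapped its baseline, and no comparison passed the test (Acadl in WT 0.33 (SE 0.13, adjusted p = 0.196), Acadvl in WT 0.45 (SE 0.17, adjusted p = 0.174), edgeR). Acad10, another member of the family, stood at 30.0, 23.9 and 33.1 FPKM in the WT and 16.4, 28.1 and 31.7 FPKM in the labelled Tet2-/- libraries at baseline. With IR, Acad10 stood at 29.9, 23.1 and 22.2 and 9.61, 11.3 and 12.8 FPKM, respectively. Its 3 labelled Tet2-/- IR libraries were the lowest of the 12, and it was lower than in WT kidneys after IR (log2 fold change -1.25, SE 0.18, adjusted p = 0.0142, edgeR). Acads, the short-chain enzyme, changed with IR by -0.87 (SE 0.16, adjusted p = 0.00493) in kidneys labelled Tet2-/-, under the limit on fold change.

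None of the enzymes that complete each round inside mitochondria was called in a reported fit. Hadha, the alpha subunit of the trifunctional protein of long chains, was at 38.8, 31.5 and 47.7 FPKM in WT and 31.2, 33.2 and 33.9 FPKM in labelled Tet2-/- kidneys at baseline. After IR Hadha was at 60.3, 54.4 and 63.7 FPKM in WT and 59.0, 47.2 and 42.1 FPKM in labelled Tet2-/- kidneys. In both genotypes every IR library lay above every baseline library, and neither change passed the test (WT 0.54 (SE 0.20, adjusted p = 0.171), labelled Tet2-/- 0.33 (SE 0.16, adjusted p = 0.128), edgeR). The partner subunit Hadhb ran from 11.0 to 17.6 FPKM over the 12 libraries, but near-identical copies elsewhere in the genome cover its whole coding sequence, so its level is uncertain. Hadh, which acts on shorter chains, was lower after IR in kidneys labelled Tet2-/- than in WT kidneys (log2 fold change -0.92, SE 0.22, adjusted p = 0.0471, edgeR), under the limit on fold change. The hydratase Echs1, the thiolase Acaa2, the enoyl-CoA isomerase Eci1 and the dienoyl-CoA reductase Decr1 were not called in any of the 5 tests. Echs1, the short-chain hydratase, had the largest change of these with IR in kidneys labelled Tet2-/-, at -0.83 (SE 0.18, adjusted p = 0.00871). After IR Eci1 differed most of these between genotypes, at -0.96 (SE 0.26, adjusted p = 0.0652), with every labelled Tet2-/- library below every WT library. Decr1 differed there by -0.73 (SE 0.26, adjusted p = 0.123). The interactions of Eci1 and Decr1 were -1.02 (SE 0.32, adjusted p = 0.0688) and -0.88 (SE 0.31, adjusted p = 0.0993) by edgeR. That of Eci1 was called with DESeq2 and the replicate block, and that of Decr1 with DESeq2.

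Electron transfer flavoprotein takes the electrons of all the mitochondrial acyl-CoA dehydrogenases, and both of its subunits were lower only in the labelled Tet2-/- IR libraries. Etfa was at 169, 135 and 164 FPKM in WT and 151, 173 and 187 FPKM in labelled Tet2-/- kidneys at baseline. After IR Etfa was at 173, 133 and 144 FPKM in WT and 95.8, 79.1 and 94.5 FPKM in labelled Tet2-/- kidneys. Etfb was at 389.8, 484 and 315 FPKM (WT) and 523, 422 and 491 FPKM (labelled Tet2-/-) at baseline. Etfb after IR was at 464, 324 and 400.1 FPKM (WT) and 201, 212 and 243 FPKM (labelled Tet2-/-). For each gene the 3 labelled Tet2-/- IR libraries lay below all other 9 and the WT libraries overlapped between baseline and IR. Etfa changed with IR by -1.18 (SE 0.18, adjusted p = 0.00184) in kidneys labelled Tet2-/- and by -0.12 (SE 0.16, adjusted p = 0.706) in WT kidneys, with an interaction of -1.02 (SE 0.24, adjusted p = 0.0282) by edgeR. The same values for Etfb were -1.38 (SE 0.18, adjusted p = 0.000987), -0.06 (SE 0.21, adjusted p = 0.895) and -1.28 (SE 0.27, adjusted p = 0.0183). Etfdh, the oxidoreductase that hands these electrons to ubiquinone, was not called in any test, with fold changes between -0.32 and 0.19.

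Acsm3 and Bdh1 were, with Acadm, the mitochondrial genes with the largest changes. Acsm3, a medium-chain acyl-CoA synthetase, was at 174, 269 and 428 FPKM in WT and 279, 405 and 301 FPKM in labelled Tet2-/- kidneys at baseline. After IR Acsm3 was at 146, 256 and 191 FPKM in WT and 105, 52.9 and 62.1 FPKM in labelled Tet2-/- kidneys. The labelled Tet2-/- IR libraries were below the other 9, and the WT baseline libraries alone ran from 174 to 428 FPKM. The gene fell with IR by 2.41 on the log2 scale in kidneys labelled Tet2-/- (SE 0.32, edgeR adjusted p = 0.00109) and the difference between genotypes after IR was -1.52 (SE 0.33, adjusted p = 0.0362). Eri2, on the opposite strand, overlaps Acsm3 and was also lowest in the labelled Tet2-/- IR libraries, at 25.3, 15.9 and 20.5 FPKM, and since the strand of the counting is not given in the sources used here, reads of these genes may be shared. Bdh1, the mitochondrial dehydrogenase that interconverts the ketone bodies acetoacetate and 3-hydroxybutyrate, was at 74.0, 79.3 and 84.8 FPKM in the WT and 114, 117 and 113 FPKM in the labelled Tet2-/- libraries at baseline. With IR, Bdh1 stood at 62.6, 38.5 and 31.8 and 23.1, 18.9 and 15.0 FPKM, respectively. The 4 groups did not overlap: labelled Tet2-/- was above WT at baseline and below it after IR. Its IR effect was -0.92 (SE 0.23, adjusted p = 0.0822) in WT kidneys and -2.86 (SE 0.19, adjusted p = 9.47e-05) in kidneys labelled Tet2-/-, with an interaction of -1.90 (SE 0.30, adjusted p = 0.00616) by edgeR.

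**Figure D4:**
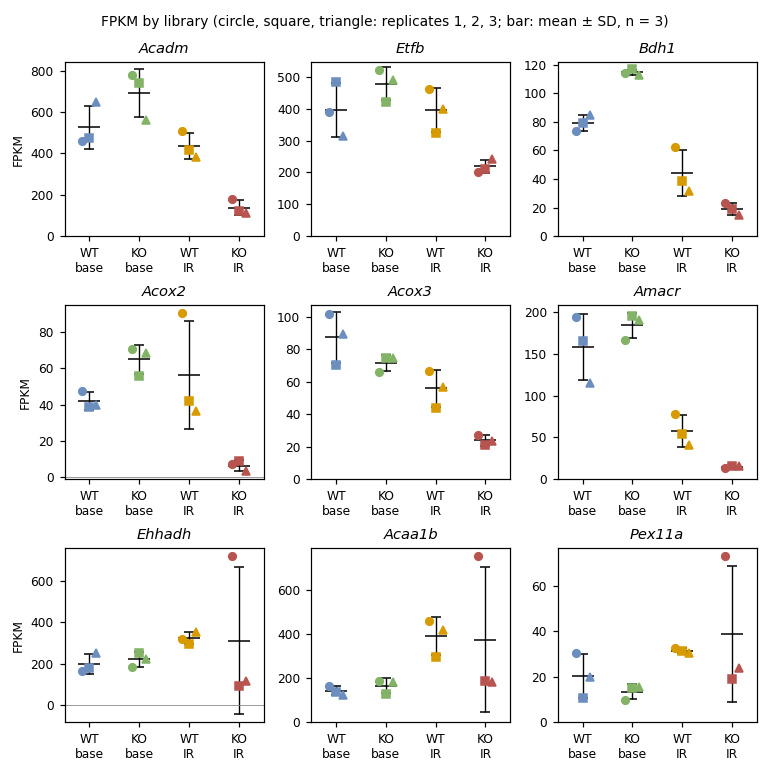
FPKM of 9 genes by library, with replicates 1, 2 and 3 as circle, square and triangle and bars for the mean ± SD of each group (n = 3; KO, labelled Tet2-/-; base, baseline). Acadm, Etfb, Bdh1, Acox2, Acox3 and Amacr were lowest in the labelled Tet2-/- IR libraries, and in Ehhadh, Acaa1b and Pex11a replicate 1 of that group lay far above its other two libraries.

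Both peroxisomal oxidases for branched and bile acid chains fell with IR in kidneys labelled Tet2-/-. Acox2, the oxidase of bile acid intermediates, was at 47.7, 38.5 and 39.99 FPKM in WT and 70.9, 55.8 and 68.3 FPKM in labelled Tet2-/- kidneys at baseline. After IR Acox2 was at 90.6, 42.2 and 36.5 FPKM in WT and 7.11, 8.89 and 3.23 FPKM in labelled Tet2-/- kidneys. It was above WT in every labelled Tet2-/- library at baseline, and after IR its labelled Tet2-/- libraries were far below all others, while WT IR replicate 1 was the highest of the 12. IR changed Acox2 by -3.62 (SE 0.33, adjusted p = 0.000281) in kidneys labelled Tet2-/- and by 0.34 (SE 0.32, adjusted p = 0.557) in WT kidneys. The genotype difference after IR was -3.25 (SE 0.46, adjusted p = 0.0131). The interaction of -3.93 (SE 0.50, adjusted p = 0.00380) was the largest among the 41 genes by edgeR. Acox3, the oxidase of branched chains, was at 102, 70.5 and 89.1 FPKM (WT) and 66.0, 74.3 and 74.8 FPKM (labelled Tet2-/-) at baseline. Acox3 after IR was at 66.7, 44.0 and 57.0 FPKM (WT) and 27.1, 20.8 and 23.8 FPKM (labelled Tet2-/-). All its labelled Tet2-/- IR libraries lay below the other 9, with an IR effect of -1.84 (SE 0.18, adjusted p = 0.000332) there, -0.70 (SE 0.22, adjusted p = 0.127) in WT kidneys and an interaction of -1.09 (SE 0.29, adjusted p = 0.0393) by edgeR. Amacr, which converts the side chains to the form these oxidases accept, was at 193, 165 and 115 FPKM in the WT and 167, 194 and 190.3 FPKM in the labelled Tet2-/- libraries at baseline. With IR, Amacr stood at 78.5, 53.6 and 40.7 and 12.9, 15.3 and 15.4 FPKM, respectively. Both genotypes were lower after IR without overlap, and the labelled Tet2-/- IR libraries were the lowest. Amacr fell by 1.53 on the log2 scale in WT kidneys (SE 0.27, edgeR adjusted p = 0.0348). It fell by 3.92 in kidneys labelled Tet2-/- (SE 0.18, adjusted p = 4.77e-05), and the interaction was -2.35 (SE 0.32, adjusted p = 0.00380).

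Scp2, the thiolase and sterol carrier that ends side-chain shortening, and Phyh also fell. Scp2 was at 142, 129 and 154 FPKM in WT kidneys at baseline, 132, 132 and 129.9 at baseline in kidneys labelled Tet2-/-, 136, 103 and 126 in WT kidneys after IR and 72.0, 48.1 and 70.5 after IR in kidneys labelled Tet2-/-, with its labelled Tet2-/- IR libraries below the other 9. Its change with IR was -1.29 (SE 0.22, adjusted p = 0.00289) in kidneys labelled Tet2-/- and its genotype difference after IR was -1.03 (SE 0.25, adjusted p = 0.0454) by edgeR. Near-identical sequence elsewhere in the genome covers 29.1% of its coding sequence, so some of its reads are uncertain. Phyh changed with IR by -1.26 (SE 0.24, adjusted p = 0.00548) in kidneys labelled Tet2-/-. Crot, which makes carnitine esters of the shortened chains for export to mitochondria, was at 138, 109 and 169 FPKM (WT) and 202, 187 and 134 FPKM (labelled Tet2-/-) at baseline. Crot after IR was at 110.2, 95.3 and 93.0 FPKM (WT) and 94.4, 37.6 and 40.8 FPKM (labelled Tet2-/-). Replicate 1 of the labelled Tet2-/- IR kidneys was near the WT IR level and the other two were lower, and the change with IR was -1.84 (SE 0.38, adjusted p = 0.00725) by edgeR. After IR it differed between genotypes by -0.88 (SE 0.36, adjusted p = 0.165), and without that replicate by -1.44 (adjusted p = 0.0399).

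Among the straight-chain enzymes of the peroxisome only Acaa1b was called with all libraries, higher with IR in WT kidneys. Ehhadh, the bifunctional hydratase and dehydrogenase, was at 164, 178 and 253 FPKM in WT and 185, 254 and 222 FPKM in labelled Tet2-/- kidneys at baseline. After IR Ehhadh was at 320.3, 296 and 353 FPKM in WT and 718, 94.96 and 116 FPKM in labelled Tet2-/- kidneys. The WT IR libraries were all above WT baseline, and labelled Tet2-/- IR replicate 1 was the highest of the 12 libraries while replicates 2 and 3 were the lowest. With all libraries the IR effect in kidneys labelled Tet2-/- was 0.24 (SE 0.72, adjusted p = 0.808), and without replicate 1 it was -1.32 (adjusted p = 0.0111). Acaa1b was at 167, 139.7 and 126 FPKM (WT) and 189, 131 and 182 FPKM (labelled Tet2-/-) at baseline. Acaa1b after IR was at 459, 297 and 421 FPKM (WT) and 757, 188 and 182 FPKM (labelled Tet2-/-). It rose in WT kidneys (log2 fold change 1.39, SE 0.22, adjusted p = 0.0277, edgeR), and in kidneys labelled Tet2-/- replicate 1 was the highest of all and replicates 2 and 3 overlapped baseline. Its IR effect there was 0.91 (SE 0.55, adjusted p = 0.216), and without replicate 1 it was -0.13 (adjusted p = 0.676). The genotype difference after IR was -0.16 (SE 0.58, adjusted p = 0.877), and without replicate 1 it was -1.19 (adjusted p = 0.0813) by edgeR. Acaa1a, its close relative, changed by -0.73 (SE 0.16, adjusted p = 0.0100) with IR in kidneys labelled Tet2-/-, under the limit on fold change. The paralogues share 98.2% identity over 68.4% of the coding sequence of Acaa1b, so their split is uncertain.

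Hsd17b4, the D-specific counterpart of Ehhadh, was at 65.6, 48.7 and 66.5 FPKM in WT and 47.8, 56.5 and 61.3 FPKM in labelled Tet2-/- kidneys at baseline. After IR Hsd17b4 was at 106, 102 and 109 FPKM in WT and 110.1, 71.8 and 83.1 FPKM in labelled Tet2-/- kidneys. In FPKM the IR libraries were all above the baseline libraries of their genotype, and on the TMM-scaled counts the labelled Tet2-/- groups overlapped. Neither change passed the test (WT 0.75 (SE 0.17, adjusted p = 0.0682), labelled Tet2-/- 0.43 (SE 0.21, adjusted p = 0.143), edgeR). Abcd3, an importer of acyl-CoA in the peroxisomal membrane, was at 99.2, 71.6 and 92.0 FPKM in the WT and 84.1, 88.2 and 78.5 FPKM in the labelled Tet2-/- libraries at baseline. With IR, Abcd3 stood at 96.6, 91.0 and 101 and 157, 68.8 and 94.6 FPKM, respectively. Its groups overlapped in every comparison, with labelled Tet2-/- IR replicate 1 the highest of the 12. Pex11a, a protein of peroxisome division, was at 30.4, 10.7 and 20.1 FPKM (WT) and 9.96, 14.9 and 15.7 FPKM (labelled Tet2-/-) at baseline. Pex11a after IR was at 32.8, 31.3 and 30.5 FPKM (WT) and 73.4, 19.2 and 23.8 FPKM (labelled Tet2-/-). Here too replicate 1 was the highest of all libraries, and the IR effect in kidneys labelled Tet2-/- was 1.27 (SE 0.50, adjusted p = 0.0762) by edgeR, against 0.41 (adjusted p = 0.271) without that library. After IR it differed between genotypes by 0.21 (SE 0.48, adjusted p = 0.808), and without that library by -0.64 (adjusted p = 0.114), with the sign turned. Decr2, the peroxisomal dienoyl-CoA reductase, was not called in any test. Nor were the isomerase Eci2 and the dehydrogenase Acad11 of both organelles, whose changes after IR between genotypes were -0.29 (SE 0.20, adjusted p = 0.374) and -0.83 (SE 0.28, adjusted p = 0.106) by edgeR. Without labelled Tet2-/- IR replicate 1 Acad11 was called lower there, at -1.23 (adjusted p = 0.0399).

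Outside the organelles, uptake genes mostly overlapped between groups. Acsl1, which activates long-chain fatty acids, was at 16.4, 16.9 and 23.6 FPKM in WT kidneys at baseline, 15.8, 13.9 and 17.6 at baseline in kidneys labelled Tet2-/-, 18.4, 26.1 and 22.6 in WT kidneys after IR and 44.9, 19.7 and 29.3 after IR in kidneys labelled Tet2-/-, and its IR effect in kidneys labelled Tet2-/- was 0.75 (SE 0.30, adjusted p = 0.0784). Acot12, a cytosolic acetyl-CoA thioesterase, was not called in any test. Cd36, a fatty acid translocase, was at 125, 98.8 and 173 FPKM (WT, baseline), 128, 160.1 and 127 (labelled Tet2-/-, baseline), 145, 171 and 143 (WT, IR) and 185, 65.6 and 88.6 (labelled Tet2-/-, IR), with labelled Tet2-/- IR replicate 1 the highest of the 12 in FPKM and replicates 2 and 3 the lowest. On TMM-scaled counts WT baseline replicate 3 was the highest. Its IR effect in kidneys labelled Tet2-/- was -0.54 (SE 0.38, adjusted p = 0.283), and without replicate 1 it was called lower, at -1.10 (adjusted p = 0.0208). Fabp3, the heart fatty acid-binding protein, was at 47.6, 37.9 and 55.7 FPKM in the WT and 51.4, 43.0 and 46.7 FPKM in the labelled Tet2-/- libraries at baseline, and 38.4, 44.4 and 57.0 and 45.0, 32.3 and 49.2 FPKM in the same order after IR, with overlap throughout, and a copy in the genome covers its whole coding sequence, so its level is uncertain. Fabp1 was barely detected at baseline, with at most 3.0 counts in any baseline library. After IR its counts were 3.5, 15.5 and 37.0 in WT and 57.5, 43.5 and 17.0 in labelled Tet2-/- libraries. The summed baseline counts were 5.5 in WT and 4.5 in labelled Tet2-/- libraries, and each sum was rounded up to a whole count for the ratio. Relative to the total counts, the rounded sums after IR were 11.0 times those at baseline in WT kidneys (95% exact interval 4.77 to 31.4). In kidneys labelled Tet2-/- they were 22.1 times those at baseline (9.22 to 69.4), with intervals for counting error only. In WT kidneys Fabp1 lay under edgeR's filter for low counts in the reported fit, with every IR library above every baseline library. It was called higher there with DESeq2 (log2 fold change 3.71, adjusted p = 0.0329) and in the fit paired by replicate number (3.52, adjusted p = 0.04998), and not without a filter (3.60, adjusted p = 0.124). In kidneys labelled Tet2-/- its adjusted p was 0.00732, with every IR library above every baseline library.

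Mitochondrial and peroxisomal genes were set side by side by the median log2 fold change of each group, as a description. With IR the medians were -0.01 and 0.21 in WT kidneys and -0.63 and -0.31 in kidneys labelled Tet2-/-, in the order mitochondrial and peroxisomal. At baseline the genotype medians were 0.13 and 0.08, and after IR -0.55 and -0.44. Without IR replicate 1 of the kidneys labelled Tet2-/- the medians of the IR effect were -0.78 and -1.08 and those of the genotype difference after IR were -0.68 and -1.03, so the order turned. In the fit paired by replicate number the peroxisomal median exceeded the mitochondrial by 0.05 instead of 0.32 for the IR effect. Per library, the mean of the peroxisomal genes minus that of the mitochondrial genes, on the log2(FPKM + 0.1) scale, was 0.35 in labelled Tet2-/- IR replicate 1 and -0.23 and -0.24 in replicates 2 and 3, where the 3 WT IR libraries lay between 0.03 and 0.12 and the 6 baseline libraries between -0.17 and 0.01.

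**Figure D5:**
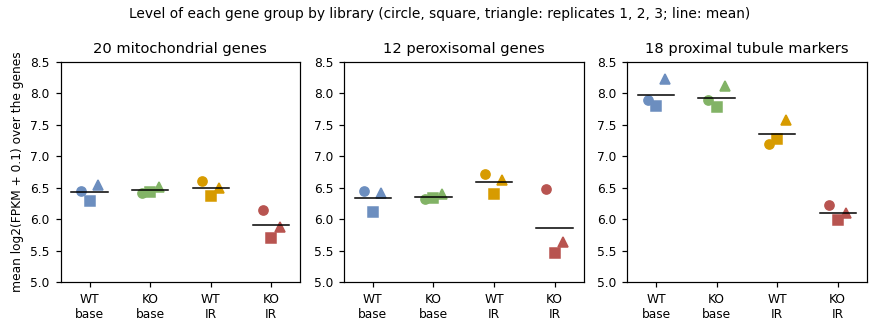
Mean log2(FPKM + 0.1) of the 20 mitochondrial genes, the 12 peroxisomal genes and 18 proximal tubule markers in each library (replicates 1, 2 and 3 as circle, square and triangle; line, group mean; KO, labelled Tet2-/-; base, baseline), on axes that start at 5. The mean of the proximal tubule markers was lower after IR in both genotypes and that of the mitochondrial genes in the labelled Tet2-/- group, with overlap in WT. In the peroxisomal genes replicate 1 of the labelled Tet2-/- IR group stayed within the range of the other groups. These means were not tested, and single mitochondrial genes (Cpt1b, Acads and Bdh1) lay below baseline in every WT IR library.

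Relative to the proximal tubule markers, the level of the 41 genes was higher after IR than at baseline. The mean of the 41 genes minus that of the 18 markers was -1.92 ± 0.14 in WT baseline, -1.86 ± 0.13 in labelled Tet2-/- baseline, -1.15 ± 0.20 in WT IR and -0.47 ± 0.24 in labelled Tet2-/- IR kidneys (SD, n = 3, log2 scale). The median change of the 18 markers with IR was -0.70 in WT and -1.83 in kidneys labelled Tet2-/-.

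Without labelled Tet2-/- IR replicate 1 the counts of lower genes did not shrink. IR in kidneys labelled Tet2-/- then lowered 16 of the 41 genes, among them all 13 called with it, where 10.5% of all genes were lower. The 3 added genes were Hadh (-1.03, adjusted p = 0.0186), Ehhadh and Cd36. The genotype difference after IR gave 8 lower genes, 5 of them among the earlier 8, at a background of 1.76%. There Ehhadh (-1.71, adjusted p = 0.0430; -0.16 with all libraries), Crot and Acad11 were gained, and Bdh1 (-1.48, adjusted p = 0.0582), Acox3 (-1.43, adjusted p = 0.0525) and Scp2 (-1.13, adjusted p = 0.0952) no longer passed the test by edgeR. The interaction gave 12, which held all 7 of the earlier genes and added Eci1 (-1.30, adjusted p = 0.0273), Acsm3 (-2.11, adjusted p = 0.0410), Ehhadh (-1.92, adjusted p = 0.0163), Acaa1b (-1.47, adjusted p = 0.0291) and Crot (-1.83, adjusted p = 0.0137), at a background of 3.91%. With all libraries the interactions of these 5 genes were -1.02, -1.74, -0.35, -0.42 and -1.25. That of Pex11a moved from 0.75 to -0.11 and passed the test in neither fit. Replicate 1 also had the highest Pdk4 of the 12 libraries.

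Other genes of the pathway were read from lists of related enzymes. Of 23 other mitochondrial genes, 10 were called lower and 2 higher with IR in kidneys labelled Tet2-/- (background 11.6% and 12.7%), against 1 and 1 in WT kidneys (0.887% and 1.46%). After IR, 7 were lower than in WT kidneys (background 3.85%). Against the same backgrounds, of 33 other peroxisomal genes, 8 were lower and 1 higher with IR in kidneys labelled Tet2-/-, 2 were lower in WT kidneys, and 4 were lower in kidneys labelled Tet2-/- than in WT kidneys after IR. Cat, the catalase that removes the hydrogen peroxide of the oxidases, was at 388, 292 and 317 FPKM in the WT and 345, 402 and 354 FPKM in the labelled Tet2-/- libraries at baseline. With IR, Cat stood at 426, 317 and 322 and 214, 151 and 149 FPKM, respectively. It was lowest in the labelled Tet2-/- IR libraries without overlap, with an IR effect of -1.35 (SE 0.22, adjusted p = 0.00237) and an interaction of -1.34 (SE 0.29, adjusted p = 0.0186) by edgeR. Slc25a20, the carnitine carrier of the inner membrane, was not called in any test.

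Of 5 other ketone genes, 3 were lower and 2 higher with IR in kidneys labelled Tet2-/-, and 1 was higher in WT kidneys, at the same backgrounds. These genes are named because the list is short, after their values were seen, except Oxct1. The lower genes were Oxct1, Acat1, the mitochondrial acetoacetyl-CoA thiolase (log2 fold change -1.86, SE 0.19), and Bdh2 (log2 fold change -2.39, SE 0.24). The higher genes were the monocarboxylate transporter Slc16a1 (log2 fold change 2.86, SE 0.37) and its family member Slc16a6 (log2 fold change 1.57, SE 0.24), and Slc16a6 was the gene higher in WT kidneys (log2 fold change 2.01, SE 0.22). Oxct1, which activates acetoacetate for use as fuel, was at 287, 266 and 378 FPKM in the WT and 287, 306 and 283 FPKM in the labelled Tet2-/- libraries at baseline. With IR, Oxct1 stood at 218, 217 and 179 and 109, 122 and 102 FPKM, respectively. It was lower with IR in kidneys labelled Tet2-/- (log2 fold change -1.66, SE 0.17, adjusted p = 0.000393, edgeR).

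Genes of uptake, activation and lipid handling outside the organelles were called in both directions. Of 21 tested in WT kidneys, 4 were higher and 1 lower with IR (background 1.46% and 0.887%). The higher genes were Acot1, the lipid droplet protein Plin2 (log2 fold change 2.52, SE 0.48) and the fatty acid hydroxylases Cyp4a10 and Cyp4a14 (log2 fold change 4.63, SE 0.85), and the lower gene was Cyp4b1. All 5 of these calls were lost when any 1 of the WT baseline libraries or WT IR replicate 3 was left out, and with the adipocyte covariate. Of 22 tested in kidneys labelled Tet2-/-, 5 were higher and 3 lower (background 12.7% and 11.6%). The higher genes there were the acyl-CoA synthetases Acsl4, Acsl5 and Acsl6 with Plin2 and Cyp4a14, and the lower genes were the desaturase Scd1, the lipase Lpl and Cyp4b1. The Acsl6 call was lost without any 1 of the labelled Tet2-/- baseline libraries or IR replicate 1, and that of Cyp4b1 without baseline replicate 3. After IR, 1 gene, Scd1, was lower and 0 were higher in kidneys labelled Tet2-/- than in WT kidneys (background 3.85% and 2.3%), and this call was kept without WT IR replicate 2 and lost without each of the other 5 libraries. These genes were named after their values were seen.

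Regulators of the pathway gave 3 lower and 3 higher of 21 with IR in kidneys labelled Tet2-/-, and 1 lower and 1 higher between the genotypes after IR. These shares were near the backgrounds of 11.6% and 12.7% with IR and of 3.85% and 2.3% after IR. In the interaction 2 of the 21 were lower and 3 higher, where 5.38% of all genes were lower and 3.78% higher. Ppara, the fatty acid-sensing nuclear receptor that drives many of these genes, was not lower after IR: its change was 0.69 (SE 0.17, adjusted p = 0.0155) in kidneys labelled Tet2-/-, under the limit on fold change. Ppargc1a, a coactivator of mitochondrial genes, changed with IR by -0.69 in the same kidneys (SE 0.20, adjusted p = 0.0282), also under the limit. Pdk4, a kinase that limits glucose oxidation and a known target of the same receptor, was at 5.44, 5.56 and 11.6 FPKM (WT) and 9.34, 5.13 and 9.53 FPKM (labelled Tet2-/-) at baseline. Pdk4 after IR was at 4.25, 7.52 and 8.10 FPKM (WT) and 189, 22.7 and 41.6 FPKM (labelled Tet2-/-). Its 3 labelled Tet2-/- IR libraries were the highest of the 12, and the genotype difference after IR was 3.57 (SE 0.82, adjusted p = 0.0412) by edgeR. Without labelled Tet2-/- IR replicate 1 the difference was 2.20 (adjusted p = 0.0562), and of the 6 libraries only labelled Tet2-/- IR replicate 2 could be left out with the call kept.

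Promoters were read because Tet2 acts on methylated CpG and because nuclear receptors bind many genes of this pathway. RefSeq promoters of 300 bases (250 before to 50 after the start, GRCm38.p6) were found for 35 of the 41 genes, 39 promoters in all, the others being Acaa2, Amacr, Cpt1b, Crat, Decr1 and Hsd17b4. They held a median of 17 CpG, with quartiles of 11 and 22, where all 32851 promoters of the table had a median of 7 with quartiles of 3 and 20. The 11 genes called lower with IR in kidneys labelled Tet2-/- and the other 24 both had a median of 17 CpG, counting the promoter with the most CpG of each gene, and ranges of 4 to 45 and 3 to 45. The direct repeat of nuclear receptor half-sites with 1 base between, searched on both strands, was in 1 of the 39 promoters, that of Fabp1, against 0.381% of all promoters. The extended half-site TNAAGGTCA was in 0 of 39 against 1.28%, and CAAAGTCCA was in 1 of 39, a promoter of Abcd3, against 0.475%. A match is only a run of letters in this window. Below are the promoters of Acadm (chr3:153944594-153944893, - strand, 13 CpG), Acox2 (chr14:8258970-8259269, - strand, 4 CpG) and Etfb (chr7:43443822-43444121, + strand, 16 CpG), genes with a called interaction and unlike CpG numbers, with each CpG in capitals, and that of Fabp1 (chr6:71199629-71199928, + strand), the called gene that rose, with the direct repeat in capitals as it reads on this strand. Acox2 has another listed promoter, chr14:8258790-8259089 with 2 CpG, which is not printed. Each printed promoter is written 5′ to 3′ on the strand of the gene.
Acadm: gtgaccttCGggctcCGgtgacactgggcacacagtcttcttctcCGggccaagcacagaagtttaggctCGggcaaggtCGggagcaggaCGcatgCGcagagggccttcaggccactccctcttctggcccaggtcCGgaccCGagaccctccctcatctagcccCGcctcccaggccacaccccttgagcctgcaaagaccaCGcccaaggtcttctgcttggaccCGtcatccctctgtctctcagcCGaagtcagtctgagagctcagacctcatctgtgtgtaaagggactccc
Acox2: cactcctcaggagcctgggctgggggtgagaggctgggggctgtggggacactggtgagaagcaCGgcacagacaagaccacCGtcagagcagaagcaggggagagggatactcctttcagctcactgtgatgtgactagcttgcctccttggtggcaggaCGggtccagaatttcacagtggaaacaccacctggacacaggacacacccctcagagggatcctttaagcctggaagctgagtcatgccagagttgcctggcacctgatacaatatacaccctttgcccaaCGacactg
Etfb: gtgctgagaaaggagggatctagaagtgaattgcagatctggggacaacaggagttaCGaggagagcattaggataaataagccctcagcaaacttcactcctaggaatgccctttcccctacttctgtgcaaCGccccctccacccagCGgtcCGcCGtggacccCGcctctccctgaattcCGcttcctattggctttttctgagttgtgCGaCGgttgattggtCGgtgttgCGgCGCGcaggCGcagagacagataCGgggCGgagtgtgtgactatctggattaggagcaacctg
Fabp1: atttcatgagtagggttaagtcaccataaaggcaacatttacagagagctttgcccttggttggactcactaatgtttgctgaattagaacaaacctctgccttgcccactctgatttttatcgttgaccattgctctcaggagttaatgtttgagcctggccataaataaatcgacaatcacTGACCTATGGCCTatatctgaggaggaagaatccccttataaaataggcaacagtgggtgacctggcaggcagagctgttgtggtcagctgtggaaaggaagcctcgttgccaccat
The repeat in the Fabp1 promoter, TGACCTATGGCCT, begins at position -67 from the start. Methylation was not analysed here, and the CpG counts describe the sequence alone.

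Reads of some genes may belong to another locus. Sequence at least 95% identical elsewhere in the NCBI m37 genome covered over 20% of the coding sequence of 8 of the 41 genes: Acad10, Hadhb, Etfa, Acaa1a, Acaa1b, Scp2, Eci2 and Fabp3. Transcripts of 12 of the genes overlap another counted transcript, of which ChkbCpt1b with Cpt1b and Eri2 with Acsm3 had counts of the same order as the gene itself. Acadm, Acox2, Bdh1 and Amacr had neither a copy of that size nor an overlap.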

How the data were processed

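RNA of whole kidneys was sequenced in 12 libraries. Per the labels and the study's methods, STAR aligned the reads to mm9, HOMER quantified RefSeq transcripts and edgeR was applied by the authors. Versions and the strand of counting are not given in the sources used here. The authors deposited expected counts without normalization (38.7% of values are not whole, in steps of 0.5), and FPKM of the same transcripts; the deposited FPKM were used for levels only. The counts were rounded before testing, since the design had assumed whole counts. Of 34600 transcripts, the one with the highest total was kept for each of 24421 symbols, of which 5569 had several. Totals per library ran from 51007362 to 107969879, and intervals cover counting error only.

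Each comparison used its own 6 libraries in edgeR 4.0.16 (R 4.3.3) with its default filterByExpr setting, TMM and the quasi-likelihood F test, and p-values were adjusted by Benjamini-Hochberg across the whole table. Calls required both an adjusted p below 0.05 and a log2 fold change beyond 1 in size. The interaction, over 12 libraries, had no limit on fold change. A group is said not to overlap another on TMM-scaled counts. Same-numbered baseline and IR samples were alike: deviations from the group means correlated at 0.347 to 0.353 in WT and at 0.121 to 0.352 in kidneys labelled Tet2-/-. The labels do not say what the numbers stand for, and the reported fits did not use them. Alternatives were DESeq2 1.42.0, limma 3.58.1 on log2(FPKM + 1) and log2(FPKM + 0.1), other scalings and filters, the replicate block, an adipocyte covariate and each library left out. Fits were tested on simulated data. Copies were sought with BLAST 2.17.0, and figures drawn with matplotlib 3.10.9 in Python 3.11.15. Protein sequences were not used here.

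The 41 genes and all lists were chosen with earlier results of these data known. Values per library are given for genes past both limits among the 4 largest changes of their class, for genes with a called interaction, and for a fixed set of 19 central members. The other members are given by counts and ranges. Some genes of the lists of related enzymes are not reported here and were left out of the counts of those lists.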

Additional observations from a re-analysis of the deposited data

Results flagged for a closer look

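For 7 genes the effect of IR differed between genotypes in the test of the difference itself (edgeR, 12 libraries, adjusted p under 0.05). The interaction was -3.93 for Acox2, -2.35 for Amacr, -2.20 for Acadm, -1.90 for Bdh1, -1.28 for Etfb, -1.09 for Acox3 and -1.02 for Etfa on the log2 scale, lower in kidneys labelled Tet2-/- in each case. The background is 5.38% of all genes lower in the same test. Groups of 3 libraries were too small for a search for single outlying samples.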

How the results depend on the processing

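The baseline comparison gave 0 calls past both limits in either direction under every alternative run, and no gene called in the reported fits changed sign. Among genes called only under an alternative, 1 had the opposite sign: Ehhadh turned from 0.24 to -1.32 for IR in kidneys labelled Tet2-/- without replicate 1 (up to 0.71 without another library). The 13 genes lower with IR in kidneys labelled Tet2-/- stayed between 12 and 16 with each library left out. Genes higher there numbered 2 with DESeq2, with library sizes alone and with all 12 libraries in 1 fit, 0 with a mean FPKM of at least 1 and with limma on log2(FPKM + 1), and 1 to 3 with a library left out.

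In WT kidneys the 1 lower gene became 0 with limma on either pseudocount, with the adipocyte covariate and with WT baseline replicate 1 as the lone library of its group, and 0 to 2 with a library left out. The 1 higher gene became 2 with DESeq2 and with the replicate block, 0 with all 12 libraries in 1 fit, with the adipocyte covariate and with that lone library, and 0 to 1 with a library left out.

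After IR the 8 genes lower in kidneys labelled Tet2-/- became 5 with limma on log2(FPKM + 1), 4 to 8 with a library left out, 7 with the replicate block (Acsm3 lost), and 0 with labelled Tet2-/- IR replicate 2 alone. Both lone-library fits were chosen after seeing the data and assume that the single sample varies like the other group. The 7 interactions became 14 with DESeq2, 11 with a mean FPKM of at least 1, 12 with the replicate block (all lower, where 7.69%, 8.29% and 6.28% of all genes were lower in these fits) and 5 to 12 with a library left out. The replicate block changed no other call.

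The peroxisomal minus mitochondrial median ran, with a library left out, from -0.000475 to 0.323 for IR in WT, from -0.296 to 0.371 for IR in kidneys labelled Tet2-/-, and from -0.348 to 0.154 between genotypes after IR. It was 0.050 with the replicate block for IR in kidneys labelled Tet2-/-, and 0.039 in WT when the genes of both organelles counted as peroxisomal. The cause of these shifts was not tested.

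Scaling by library size alone moved the median of all genes for IR in kidneys labelled Tet2-/- from 0.04 to 0.27 and that of the 41 genes from -0.40 to -0.19. Between the genotypes, correlations of same-numbered samples ran from -0.174 to 0.053 at baseline and were 0.001, 0.206 and 0.305 after IR, so not every pair exceeded 0.1, and after IR 1 of 3 samples correlated best with its own number.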
